A study of Homo sapiens with 26 samples.

Results

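Binding of the glucocorticoid receptor (GR) was examined at 9 genes for transcription factors of the lung and foregut lineage: FOXA1, FOXA2, GATA6, NKX2-1, SOX9, SOX4, TEAD1, ELF3 and GRHL2. A bound region was assigned to one of them when the nearest protein-coding gene start to its midpoint was that gene's, within 100 kb (GENCODE release 44, hg38). By this rule 24 of the 10740 regions in the authors' table belonged to the set, and 8 of the 9 genes had at least 1. ELF3 had 6 regions, GATA6, GRHL2 and TEAD1 had 4 each, SOX9 had 3, and FOXA1, NKX2-1 and SOX4 had 1 each. FOXA2 had none. The rule used position only and no binding value, but the 9 genes were chosen with earlier results of these data known.

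The cells were A549, an established human lung carcinoma line, kept without serum overnight and infected with an adenovirus. One virus, Ad-IκBαΔN, carried a dominant form of the inhibitor IκBα that blocks NF-κB. The other, Ad-GFP, carried green fluorescent protein and served as the virus control. For 1 h the cells then received IL1B at 1 ng/ml together with the synthetic glucocorticoid budesonide at 300 nM (I+B), budesonide alone at 300 nM (Bud), or no stimulus (NS), so that all 6 groups had been infected. GR was immunoprecipitated from 2 libraries per group, from 2 independent experiments. The table holds 1 value of the authors per region and group, on the scale log2(signal + 1), and all regions in the set were 400 bp wide. There is thus no spread between replicates, none of the differences below was tested, and no p-value is given. A region is called higher or lower where the difference reaches 2-fold, which is 1 on the log2 scale. Whether the cells keep their lineage state cannot be read from GR binding, so the name of the set rests on what the genes are known for.

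GR is a ligand-activated nuclear receptor that binds DNA either directly, at glucocorticoid response elements (GREs), or in company with other factors, such as NF-κB at κB sites and AP-1. Of the genes in the set, FOXA1 and FOXA2 encode pioneer factors of the endoderm that open chromatin for later factors. GATA6 encodes a zinc-finger factor of endoderm and airway epithelium. NKX2-1 encodes the homeodomain factor that marks the lung primordium and drives surfactant genes. SOX9 encodes a factor of the distal lung tip, and SOX4 a related factor of progenitor cells. TEAD1 encodes the DNA-binding partner of the Hippo effectors YAP and TAZ. ELF3 encodes an epithelial ETS factor, and GRHL2 encodes a grainyhead factor that maintains epithelial junctions.

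Below is the DNA under 7 of the regions, read from the hg38 plus strand. They were chosen because each holds a match to one of the motifs of GR or its partners, and because the binding of GR differed between them. Capitals mark the κB match in the first 3, the GRE match in the next 2 and the AP-1 match in the last 2. ELF3 +2.6 kb covers chr1:202010489-202010518 and GATA6 +5.8 kb covers chr18:22175313-22175512. TEAD1 +50.3 kb covers chr11:12724594-12724793 and NKX2-1 +66.4 kb covers chr14:36454640-36454839. TEAD1 +18.5 kb covers chr11:12692812-12693011, GATA6 +54.3 kb covers chr18:22223801-22224000 and FOXA1 -72.8 kb covers chr14:37668797-37668996. Regions are named by their distance from the gene's start, positive in the direction of transcription.
ELF3 +2.6 kb: ctaaaggccaGGAAATCCCCtccatccaat
GATA6 +5.8 kb: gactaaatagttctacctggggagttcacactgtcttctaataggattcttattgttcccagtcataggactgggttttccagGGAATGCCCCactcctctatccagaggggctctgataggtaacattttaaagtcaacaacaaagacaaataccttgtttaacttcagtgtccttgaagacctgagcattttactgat
TEAD1 +50.3 kb: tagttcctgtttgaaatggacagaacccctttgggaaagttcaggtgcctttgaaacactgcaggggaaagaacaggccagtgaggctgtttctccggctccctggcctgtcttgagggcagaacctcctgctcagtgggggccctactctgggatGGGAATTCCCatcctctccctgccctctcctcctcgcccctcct
NKX2-1 +66.4 kb: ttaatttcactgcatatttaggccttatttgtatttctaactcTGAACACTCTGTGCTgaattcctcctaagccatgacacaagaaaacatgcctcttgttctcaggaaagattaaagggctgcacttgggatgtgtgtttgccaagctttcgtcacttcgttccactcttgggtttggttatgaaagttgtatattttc
TEAD1 +18.5 kb: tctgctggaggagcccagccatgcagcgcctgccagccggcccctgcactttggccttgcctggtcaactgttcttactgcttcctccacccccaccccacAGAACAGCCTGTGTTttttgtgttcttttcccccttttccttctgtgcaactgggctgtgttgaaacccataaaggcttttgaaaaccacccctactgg
GATA6 +54.3 kb: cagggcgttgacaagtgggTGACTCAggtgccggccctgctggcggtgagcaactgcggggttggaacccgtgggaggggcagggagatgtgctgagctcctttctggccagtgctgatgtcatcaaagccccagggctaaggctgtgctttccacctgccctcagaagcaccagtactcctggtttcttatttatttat
FOXA1 -72.8 kb: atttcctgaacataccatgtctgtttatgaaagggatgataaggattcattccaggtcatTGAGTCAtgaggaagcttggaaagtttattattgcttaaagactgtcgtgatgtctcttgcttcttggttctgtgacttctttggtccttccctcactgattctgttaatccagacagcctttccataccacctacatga

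With both viruses, budesonide alone gave GR binding at most of these genes, and regions of the set differed in what adding IL1B did. In Ad-GFP cells, 13 of the 24 regions were at least 2-fold higher with IL1B plus budesonide than with budesonide, beside 48.9% of the whole table, so the count itself was near the background. They were led by GATA6 +5.8 kb, ELF3 +2.6 kb and ELF3 +21.5 kb, while the regions at SOX9, SOX4 and NKX2-1 were not. In Ad-IκBαΔN cells, 1 of the 24 was, beside 9.65% of the whole table. The values of all 6 groups are shown in the heat map of signals.

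**Figure D1:**
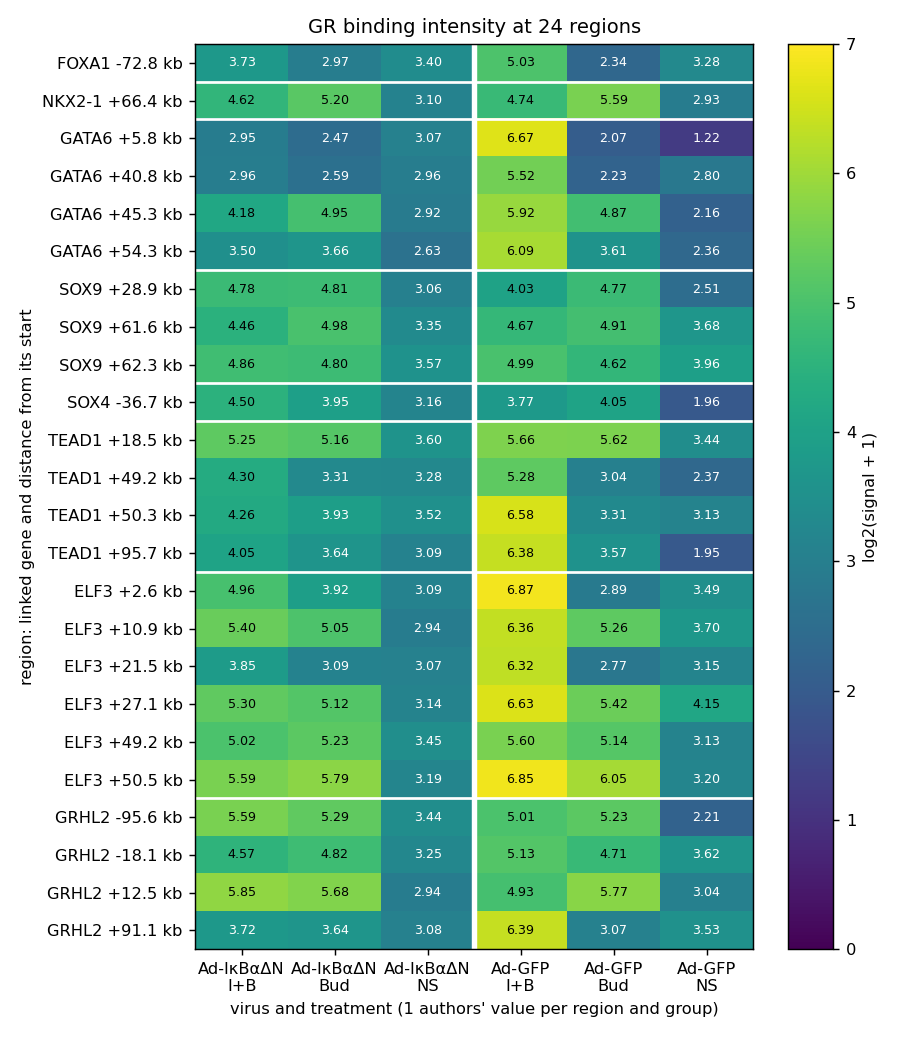
GR binding at the 24 regions, as log2(signal + 1) printed in each cell and coloured from 0 to 7. Rows are regions grouped by gene, columns are the 3 treatments in Ad-IκBαΔN cells (left) and Ad-GFP cells (right), with 1 authors' value per cell. The brightest cells are in the Ad-GFP I+B column, at ELF3 +2.6 kb, ELF3 +50.5 kb and GATA6 +5.8 kb.

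The scale of each group bears on every difference between groups. In 5 of the 6 groups the unlogged values were whole multiples of a smallest step, and the step was 3 times larger in Ad-GFP I+B, and 1.5 times larger in Ad-IκBαΔN I+B, than in the Bud groups. The sixth group, Ad-IκBαΔN NS, had 0.0093% of its values on the step of the Bud groups. Over all regions its log2 values had a standard deviation of 0.30, beside 0.63 in Ad-GFP NS. Bud against NS is thus not strictly alike in the 2 viruses. What set the steps was not given in the sources used here. Each difference was therefore computed on 5 scales: as deposited, with the steps divided out, with the groups re-centred to a common median, after quantile normalization, and centred on the regions the authors class as unchanged. Of the 13 regions higher in Ad-GFP I+B, 7 were at least 2-fold higher on all 5 scales: GATA6 +5.8 kb, GATA6 +40.8 kb, TEAD1 +50.3 kb, TEAD1 +95.7 kb, ELF3 +2.6 kb, ELF3 +21.5 kb and GRHL2 +91.1 kb. Of all regions, 24.2% were. Another 3 of the 13, namely FOXA1 -72.8 kb, GATA6 +54.3 kb and TEAD1 +49.2 kb, were above 0 on all 5. In all, 10 of the 24 regions were above 0 on every scale, beside 41.4% of all regions. The remaining 3 of the 13, GATA6 +45.3 kb, ELF3 +10.9 kb and ELF3 +27.1 kb, changed sign with the steps divided out. Below 0 on all 5 scales were 6 regions: GRHL2 -95.6 kb, GRHL2 +12.5 kb, NKX2-1 +66.4 kb, SOX4 -36.7 kb, SOX9 +28.9 kb and SOX9 +61.6 kb, beside 30.9% of the table. Differences below are as deposited unless stated.

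**Figure D2:**
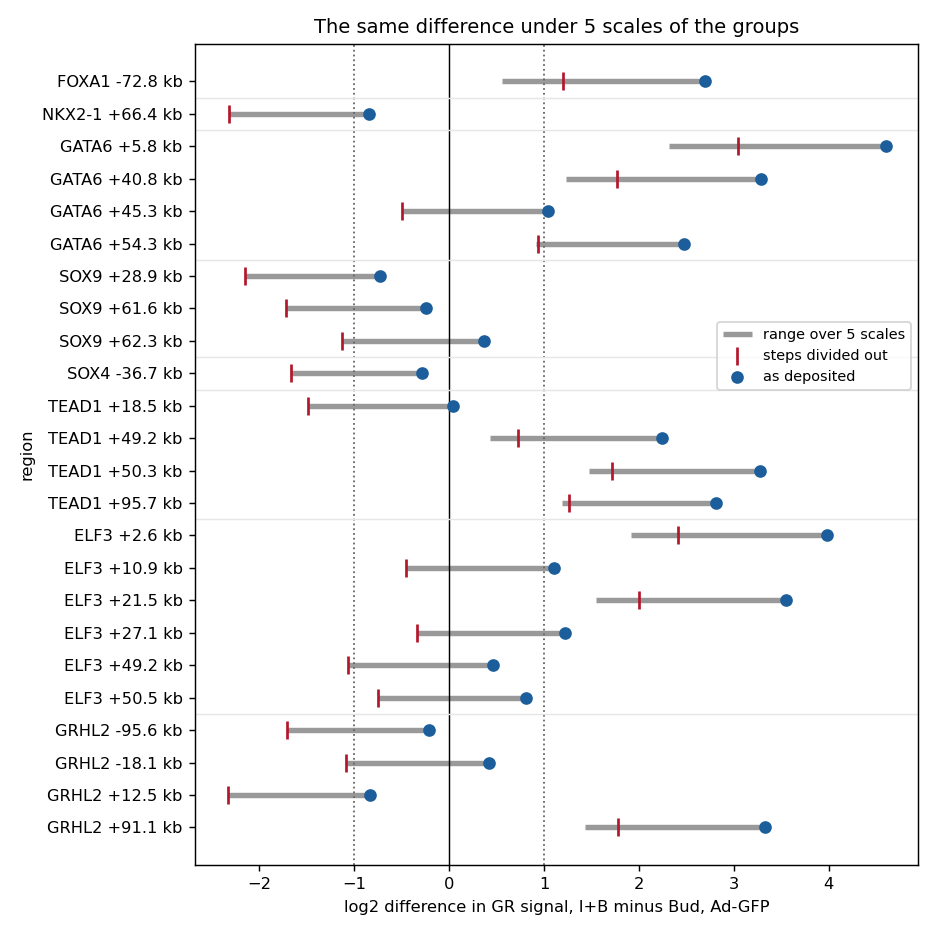
The log2 difference in GR signal between I+B and Bud in Ad-GFP cells for each region. The grey bar is the range over 5 scales, the point is the deposited value and the tick is the value with the steps divided out, with dotted lines at 1 and -1. Of the 24 bars, 7 lie wholly above 1 and 6 wholly below 0.

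Among the endoderm factors, GATA6 had the region with the largest difference. GATA6 lies on chromosome 18 at 22169589 to 22202528, plus strand, and the region at +5.8 kb (22175213 to 22175612) lies in its intron and overlaps an exon of a long non-coding RNA. Its signal was 6.72 in I+B, 4.53 in Bud and 7.41 in NS in Ad-IκBαΔN cells, against 100.5 in I+B, 3.19 in Bud and 1.34 in NS in Ad-GFP cells. Ad-GFP I+B thus stood alone, with all the other values under 8. The log2 difference between I+B and Bud was 0.48 in Ad-IκBαΔN cells and 4.60 in Ad-GFP cells, a 24.2-fold difference on signal + 1, and the lowest of the 5 scales gave 2.32.

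The other 3 GATA6 regions lay downstream of the gene, outside any protein-coding gene, and those at +45.3 kb and +54.3 kb lay in an intron of a long non-coding RNA. At +40.8 kb (22210190 to 22210589) the signal was 6.76, 5.01 and 6.77 in I+B, Bud and NS in Ad-IκBαΔN cells, and 45.0, 3.70 and 5.98 in Ad-GFP cells. Like the intronic region, it stayed near the unstimulated level in every group but Ad-GFP I+B, with a log2 difference of 3.29 between I+B and Bud there. At +54.3 kb (22223701 to 22224100) the signal was 10.3, 11.65 and 5.19 in Ad-IκBαΔN cells, and 66.9, 11.2 and 4.14 in Ad-GFP cells, so budesonide alone already gave binding there. At +45.3 kb (22214710 to 22215109), the strongest of the 4 by its mean over groups, it was 17.1, 29.8 and 6.56 in Ad-IκBαΔN cells, and 59.4, 28.3 and 3.47 in Ad-GFP cells. Here I+B was below Bud with Ad-IκBαΔN (log2 -0.77) and above it with Ad-GFP (1.04), a value that became -0.49 with the steps divided out.

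FOXA1, on chromosome 14 at 37589552 to 37596059, minus strand, had a single region, at 37668697 to 37669096 in an intron of the neighbouring TTC6. Its signal was 12.3 in I+B, 6.84 in Bud and 9.59 in NS in Ad-IκBαΔN cells, and 31.7, 4.06 and 8.74 in Ad-GFP cells. Budesonide alone was below the unstimulated value in both (log2 -0.43 and -0.95), and I+B was above budesonide by 0.76 and 2.69. On the lowest scale the Ad-GFP difference was 0.55. The authors place this region in their decreasing class. It was the only one of 9 decreasing regions in the set to be higher by 2-fold in I+B, and 96 of the 2984 decreasing regions in the table were at or above its value.

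NKX2-1, on chromosome 14 at 36516392 to 36521149, minus strand, also had a single region, at 36454540 to 36454939, in an intron of a long non-coding RNA downstream of the gene. The signal there was 23.5 in I+B, 35.7 in Bud and 7.60 in NS in Ad-IκBαΔN cells, and 25.8, 47.1 and 6.62 in Ad-GFP cells. Both viruses gave the same order, with Bud highest and I+B between Bud and NS. The log2 difference between Bud and NS was 2.09 and 2.66, and that between I+B and Bud was -0.58 and -0.84. FOXA2, on chromosome 20 at 22580998 to 22585455, minus strand, had no region within 100 kb.

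At the SOX genes no region was 2-fold higher with IL1B in either virus. The 3 SOX9 regions lay in introns of SOX9-AS1, an antisense transcript, downstream of SOX9 (chromosome 17, 72121020 to 72126416, plus strand). At +62.3 kb (72183116 to 72183515), the strongest by its mean, the signal was 28.0 in I+B, 26.9 in Bud and 10.9 in NS in Ad-IκBαΔN cells, and 30.7, 23.6 and 14.6 in Ad-GFP cells. At +61.6 kb (72182468 to 72182867), 0.648 kb away, it was 21.1, 30.6 and 9.17 in Ad-IκBαΔN cells, and 24.4, 29.1 and 11.8 in Ad-GFP cells. These neighbours lie close together and are not separate evidence. At +28.9 kb (72149761 to 72150160) it was 26.5, 27.0 and 7.34 in Ad-IκBαΔN cells, and 15.4, 26.2 and 4.68 in Ad-GFP cells. The I+B value of Ad-GFP cells was thus below that of Ad-IκBαΔN cells at this region, the reverse of the GATA6 regions.

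SOX4, on chromosome 6 at 21593751 to 21598619, plus strand, had a single region upstream of the gene, at 21556896 to 21557295 in an intron of a long non-coding RNA. Its signal was 21.7 in I+B, 14.4 in Bud and 7.95 in NS in Ad-IκBαΔN cells, and 12.6, 15.6 and 2.90 in Ad-GFP cells. With IL1B it was higher in Ad-IκBαΔN cells (log2 0.56) and lower in Ad-GFP cells (-0.28). Neither value reached 2-fold. The signs were opposite on all 5 scales, though the Ad-IκBαΔN value was only 0.0035 with the steps divided out. The Ad-GFP I+B signal was low, with 2.23% of all regions below it in that group.

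All 4 TEAD1 regions lay in introns of TEAD1 itself (chromosome 11, 12674421 to 12944737, plus strand), and they behaved in 2 ways. The strongest by its mean, +18.5 kb (12692712 to 12693111), had a signal of 37.1 in I+B, 34.9 in Bud and 11.1 in NS in Ad-IκBαΔN cells, and 49.5, 48.1 and 9.87 in Ad-GFP cells. The difference between I+B and Bud was close to 0 there as deposited (log2 0.09 and 0.04), though the Ad-GFP value was -1.49 with the steps divided out. At +50.3 kb (12724494 to 12724893) the signal was 18.1, 14.3 and 10.5 in Ad-IκBαΔN cells, and 94.9, 8.94 and 7.78 in Ad-GFP cells. At +95.7 kb (12769946 to 12770345) it was 15.6, 11.4 and 7.54 in Ad-IκBαΔN cells, and 82.4, 10.8 and 2.86 in Ad-GFP cells. In both, Ad-GFP I+B was far above every other group, with log2 differences from Bud of 3.27 and 2.82. At +49.2 kb (12723420 to 12723819), 1.07 kb from the region at +50.3 kb, the signal was 18.7, 8.91 and 8.71 in Ad-IκBαΔN cells, and 37.8, 7.22 and 4.16 in Ad-GFP cells. Its log2 difference of 0.99 in Ad-IκBαΔN cells lay just under the 2-fold line, against 2.24 in Ad-GFP cells.

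ELF3 (chromosome 1, 202007945 to 202017183, plus strand) had the most regions, all downstream of its start. The region at +2.6 kb (202010331 to 202010730) was the only one of the 24 within 5 kb of its gene's start. It overlaps an untranslated part of ELF3 and an exon of ELF3-AS1, an antisense transcript. Its signal was 30.0 in I+B, 14.2 in Bud and 7.52 in NS in Ad-IκBαΔN cells, and 116, 6.42 and 10.2 in Ad-GFP cells. The log2 difference between I+B and Bud was 1.03 in Ad-IκBαΔN cells, the only such call in that virus, and 3.98 in Ad-GFP cells, a 15.7-fold difference on signal + 1. The Ad-IκBαΔN call was lost on each of the other scales, where the value lay between 0.47 and 0.94. At +21.5 kb (202029225 to 202029624) the signal was 13.4, 7.54 and 7.39 in Ad-IκBαΔN cells, and 78.8, 5.84 and 7.86 in Ad-GFP cells. At these 2 regions budesonide alone gave no more than the unstimulated signal in Ad-GFP cells.

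The other ELF3 regions were bound with budesonide alone. At +50.5 kb (202058204 to 202058603), the strongest of the 6 by its mean, the signal was 47.2, 54.3 and 8.10 in I+B, Bud and NS in Ad-IκBαΔN cells, and 115, 65.1 and 8.16 in Ad-GFP cells. At +10.9 kb (202018610 to 202019009) it was 41.4, 32.1 and 6.69 in Ad-IκBαΔN cells, and 80.9, 37.2 and 12.0 in Ad-GFP cells. At +27.1 kb (202034819 to 202035218) it was 38.3, 33.7 and 7.83 in Ad-IκBαΔN cells, and 98.3, 41.8 and 16.7 in Ad-GFP cells. In these 3 the Ad-GFP difference between I+B and Bud (log2 0.81, 1.10 and 1.22) was smaller than at +2.6 kb and +21.5 kb. It changed sign with the steps divided out. The region at +49.2 kb (202056925 to 202057324), 1.28 kb from the one at +50.5 kb, had a signal of 31.4, 36.5 and 9.89 in Ad-IκBαΔN cells, and 47.55, 34.3 and 7.74 in Ad-GFP cells. Its differences between I+B and Bud were -0.21 in Ad-IκBαΔN cells and 0.46 in Ad-GFP cells.

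GRHL2, on chromosome 8 at 101492439 to 101669726, plus strand, had regions of opposite kinds. The strongest by its mean, at +12.5 kb in its intron (101504701 to 101505100), had a signal of 56.6 in I+B, 50.15 in Bud and 6.70 in NS in Ad-IκBαΔN cells, and 29.55, 53.55 and 7.25 in Ad-GFP cells. Adding IL1B left it near the budesonide value in Ad-IκBαΔN cells (log2 0.17) and below it in Ad-GFP cells (-0.84). The region at +91.1 kb (101583371 to 101583770), also in its intron, had a signal of 12.2, 11.45 and 7.45 in Ad-IκBαΔN cells, and 82.95, 7.38 and 10.6 in Ad-GFP cells. There the log2 difference was 0.08 in Ad-IκBαΔN cells and 3.33 in Ad-GFP cells. Upstream of the gene, the region at -95.6 kb (101396653 to 101397052) had a signal of 47.0, 38.1 and 9.84 in Ad-IκBαΔN cells, and 31.3, 36.5 and 3.64 in Ad-GFP cells. The one at -18.1 kb (101474143 to 101474542), in an intron of a long non-coding RNA, had 22.7, 27.3 and 8.49 in Ad-IκBαΔN cells, and 33.9, 25.2 and 11.3 in Ad-GFP cells. Neither differed by 2-fold between I+B and Bud in either virus as deposited.

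**Figure D3:**
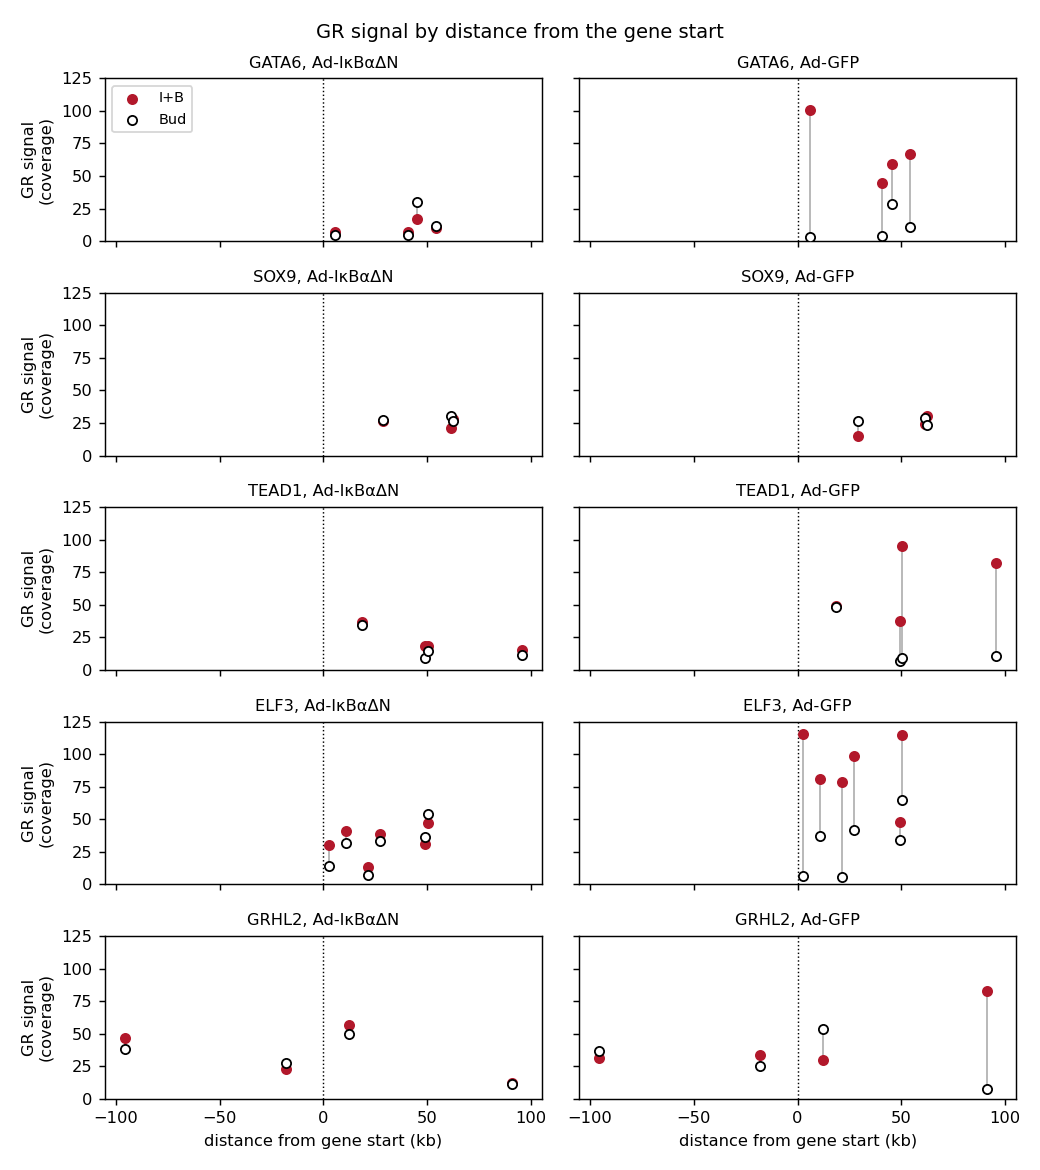
GR signal on the unlogged scale (vertical axis) against distance from the gene start in kb for the 5 genes with 3 or more regions. Ad-IκBαΔN cells are on the left and Ad-GFP cells on the right, with filled points for I+B, open points for Bud and a line joining the pair. In Ad-GFP cells ELF3 +2.6 kb reached 116 against 6.42 and GATA6 +5.8 kb reached 100.5 against 3.19, while the SOX9 pairs lay close together.

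Budesonide alone was set against no stimulus in each virus, which asks where the glucocorticoid brings GR to these genes. In Ad-IκBαΔN cells 14 of the 24 regions passed 2-fold upward and 0 downward, beside a background in the table of 59.3% upward and 1.06% downward. In Ad-GFP cells 15 of 24 passed upward and 0 downward, beside 57.9% and 8.14%. The median log2 difference of the set was 1.40 in Ad-IκBαΔN cells and 1.26 in Ad-GFP cells, beside 1.37 over all regions in both. The set thus stood near the table as a whole. The largest differences in Ad-IκBαΔN cells were at GRHL2 +12.5 kb (2.73) and ELF3 +50.5 kb (2.60). In Ad-GFP cells they were at GRHL2 -95.6 kb (3.01) and ELF3 +50.5 kb (2.85). These shares depend on the scale: re-centred to a common median, 2 of 24 in Ad-IκBαΔN cells and 5 of 24 in Ad-GFP cells were higher, beside 18.9% and 24.3% of the table, and 5 and 6 were lower, beside 27.2% and 32.6%. Re-centring takes out, by construction, any difference shared by all regions, including one that budesonide brings.

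IL1B plus budesonide was then set against budesonide alone, which asks how the cytokine moves GR. In Ad-IκBαΔN cells 1 of 24 regions was higher and 0 lower, beside a background of 9.65% and 0.94%, and the set's median was 0.18 beside 0.26 over all regions. In Ad-GFP cells 13 of 24 were higher and 0 lower, where 48.9% and 6.07% of all regions were, and the median was 1.07 beside 0.92. Both shares were again near the background. With the steps divided out, 8 of the 24 in Ad-GFP cells were higher and 10 lower, beside 30.3% and 43.7% of the table, and the median of the table was -0.61.

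**Figure D4:**
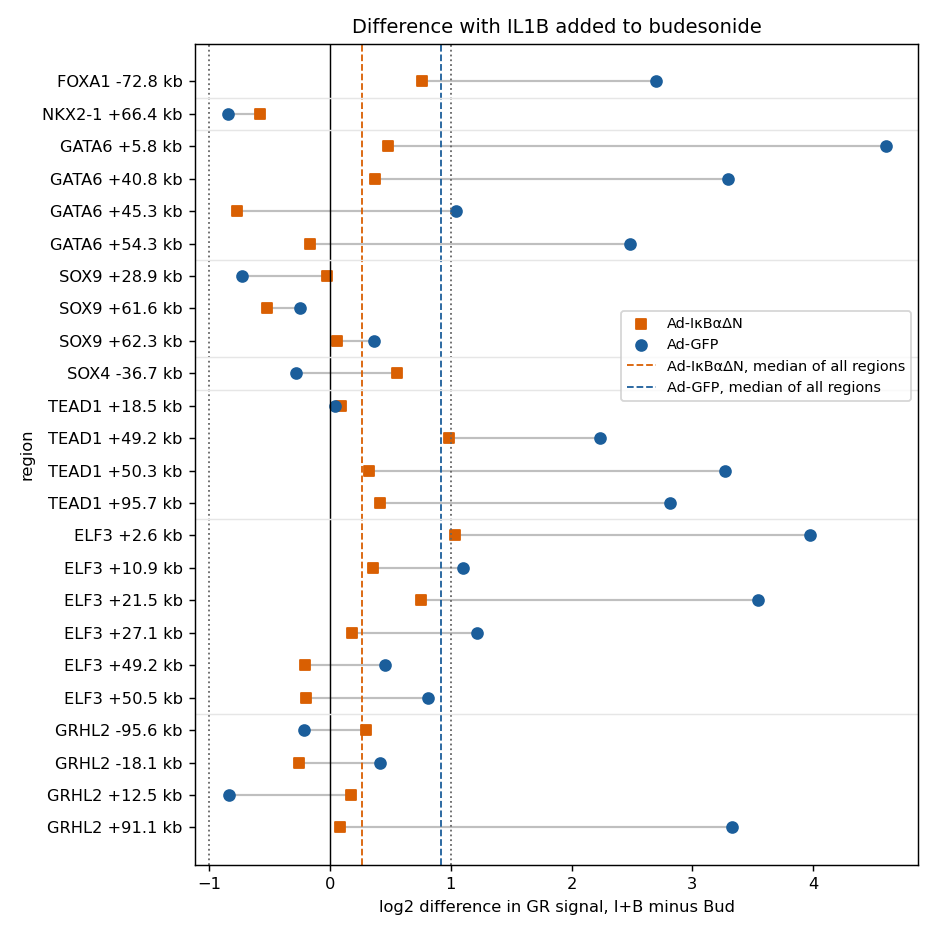
The log2 difference in GR signal between I+B and Bud for each region, with squares for Ad-IκBαΔN cells and circles for Ad-GFP cells. Dashed lines are the medians over all regions (0.26 and 0.92) and dotted lines mark 2-fold. The squares lie between -0.77 and 1.03, and the circles reach 4.60 at GATA6 +5.8 kb.

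By the authors' own classes, 10 of the 24 regions (41.7%) were increasing, 5 (20.8%) unchanged and 9 (37.5%) decreasing. Over the whole table the shares were 40.5%, 31.8% and 27.8%. All 10 increasing regions, 2 of 5 unchanged and 1 of 9 decreasing regions were at least 2-fold higher in I+B than in Bud in Ad-GFP cells. Over the whole table that held for 93.3%, 28.8% and 7.27% of the classes. The 1 of 9 decreasing regions (11.1%) was thus near the share of its class. It was FOXA1 -72.8 kb, whose mean log2 value of 3.46 was the lowest among the genes' strongest regions. It was not established here which libraries the classes were made from. They may share libraries with the call, and the counts are a description only.

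The viruses were compared directly within each treatment, which asks what NF-κB inhibition does to GR binding. In budesonide, 1 of 24 regions was higher in Ad-IκBαΔN cells and 0 lower, beside a background of 4.02% and 0.0186%. That region was ELF3 +2.6 kb, with a signal of 14.2 in Ad-IκBαΔN cells and 6.42 in Ad-GFP cells (log2 1.03, and 0.40 after quantile normalization). In I+B, 0 of 24 were higher and 12 lower in Ad-IκBαΔN cells, where 5.97% and 46.5% of all regions were, with medians of -1.12 for the set and -0.85 over all regions. With the steps divided out, 4 were higher and 7 lower, beside 25.7% and 22.4% of the table. The most negative were GATA6 +5.8 kb (-3.72), GRHL2 +91.1 kb (-2.67), GATA6 +54.3 kb (-2.59) and GATA6 +40.8 kb (-2.57). At 7 regions the value was -1 or below on all 5 scales: those 4 with ELF3 +21.5 kb, TEAD1 +50.3 kb and TEAD1 +95.7 kb, beside 21.8% of the table. On the positive side were GRHL2 +12.5 kb (0.91), SOX9 +28.9 kb (0.75), SOX4 -36.7 kb (0.73) and GRHL2 -95.6 kb (0.57). Of the 13 regions that were 2-fold higher in I+B than in Bud in Ad-GFP cells, 11 were 2-fold lower in Ad-IκBαΔN than in Ad-GFP cells in I+B. The like share over all regions was not computed. These comparisons share the Ad-GFP I+B value and do not bear on each other as separate evidence.

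The DNA of the regions was searched on both strands for short motifs, and a match is a description of the letters only. The GRE was taken as AGAACA followed by 3 bases of any kind and then TGTTCT, with at most 2 mismatches in the 12 fixed bases. It matched 3 of the 24 regions (12.5%), beside 14.7% of all regions: NKX2-1 +66.4 kb, TEAD1 +18.5 kb and GRHL2 -95.6 kb. As deposited, all 3 were more than 2-fold higher with budesonide than without in both viruses. Of all regions, 59.3% in Ad-IκBαΔN and 57.9% in Ad-GFP cells were at least 2-fold higher. After quantile normalization TEAD1 +18.5 kb was at -1.12 in Ad-IκBαΔN cells. None of the 3 was 2-fold higher again with IL1B. The shares among all regions with a GRE match were not computed. The κB consensus matched 4 of 24 (16.7%), beside 21.3% of all regions: ELF3 +2.6 kb, GATA6 +5.8 kb, TEAD1 +50.3 kb and GRHL2 +91.1 kb. All 4 were among the 10 increasing regions of the set, near the share of that class in the table. There 40.3% of increasing regions held a match, against 11.8% of unchanged and 4.49% of decreasing regions. The 4 were also among the 7 regions that were 2-fold higher in Ad-GFP I+B on all 5 scales. The like share among all regions with a κB match was not computed. In the printed sequence of GATA6 +5.8 kb the κB match begins with GGAATG, the letters searched for TEAD factors, so the 2 matches overlap.

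AP-1 (TGACTCA) matched 7 of 24 regions (29.2%), beside 22.8% of all regions. These were ELF3 +21.5 kb, ELF3 +50.5 kb, FOXA1 -72.8 kb, GATA6 +54.3 kb, GRHL2 -18.1 kb, GRHL2 +12.5 kb and TEAD1 +50.3 kb, so that TEAD1 +50.3 kb alone held both κB and AP-1. In the FOXA1 region the AP-1 match lay 36.5 bp from the centre. At 11 of the 24 regions none of these 3 motifs was found, including the SOX9 and SOX4 regions. Motifs of the lineage factors themselves are given beside their share of all regions. The letters AGATAA or TGATAA, for GATA factors, matched 33.3% beside 36.4% of all regions. FOX (TGTTTAC or TATTTAC) matched 16.7% beside 22.7%. SOX (AACAAAG or AACAATG) matched 25.0% beside 21.4%. TEAD (GGAATG) matched 29.2% beside 28.1%, GRHL (AACNNGTT) 8.33% beside 7.55%, and NKX2-1 (CAAGTG) 33.3% beside 22.4%. ETS (CCGGAAG or CAGGAAG) matched 1 region, GATA6 +45.3 kb (4.17% beside 19.5%). A match to the region's own factor was found at GATA6 +40.8 kb, TEAD1 +95.7 kb, GRHL2 +91.1 kb, SOX4 -36.7 kb and NKX2-1 +66.4 kb. It was absent from the other GATA6, TEAD1 and GRHL2 regions and from all SOX9, FOXA1 and ELF3 regions. No share over all regions was computed for such own-factor matches. The median GC content was 47.5% in the set and 44.5% over all regions.

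**Figure D5:**
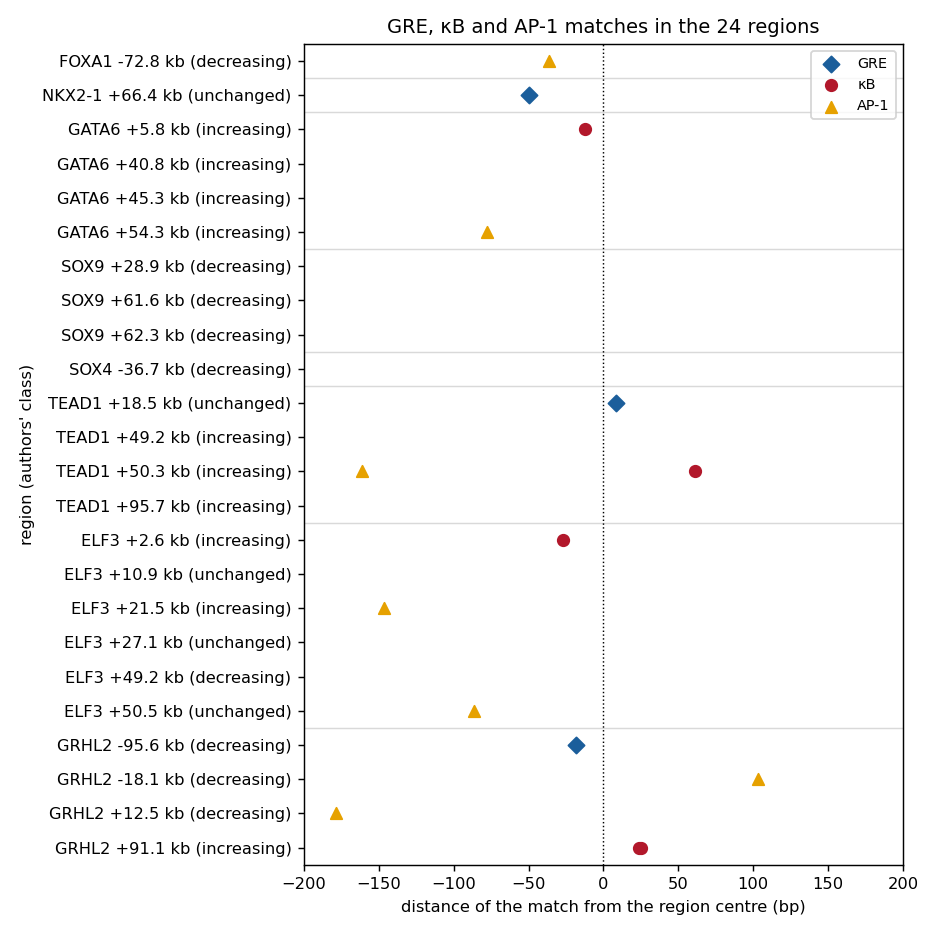
Position of each GRE, κB and AP-1 match within the 24 regions, in bp from the region centre, with the authors' class in brackets. Matches lie at 13 regions, and the 4 regions with a κB match are all of the increasing class.

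Other genes of the same lineage were counted for comparison. Of 51 partner factors, 25 had regions, 44 in all. In I+B against Bud, 2 of the 44 were 2-fold higher and 0 lower in Ad-IκBαΔN cells, with a median of 0.28, and 18 were higher and 1 lower in Ad-GFP cells, with a median of 0.40 as deposited and -1.09 with the steps divided out. Of all regions, 9.65% in Ad-IκBαΔN and 48.9% in Ad-GFP cells were higher, with medians of 0.26 and 0.92. On all 5 scales, 7 of the 44 were higher and 1 lower in Ad-GFP cells, beside 24.2% and 6.07% of the table. Read by the strongest region of each gene, the highest Ad-GFP differences were at SOX2 (3.98), a factor of the proximal airway, FOXP4 (3.92), a forkhead repressor of lung epithelium, and PROX1 (3.69), a homeodomain factor of foregut organs. At the SOX2 region the signal was 6.85 in I+B and 7.095 in Bud in Ad-IκBαΔN cells, and 65.4 in I+B and 3.21 in Bud in Ad-GFP cells. The lowest were EHF (-1.10), an ETS factor close to ELF3, SOX17 (-0.93), a factor of definitive endoderm, and WWTR1 (-0.89), which encodes TAZ. At the EHF region the signal was 238 in I+B and 168 in Bud in Ad-IκBαΔN cells, and 105 in I+B and 225 in Bud in Ad-GFP cells.

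Of 37 genes that mark differentiated lung epithelium, 13 had regions, 32 in all. In I+B against Bud, 4 of the 32 were higher and 0 lower in Ad-IκBαΔN cells, with a median of -0.01, and 14 were higher and 4 lower in Ad-GFP cells, with a median of 0.18 as deposited and -1.37 with the steps divided out. The table's shares in Ad-GFP cells were 48.9% higher and 6.07% lower, and in Ad-IκBαΔN cells 9.65% and 0.94%. On all 5 scales, 4 of the 32 were higher and 4 lower in Ad-GFP cells, beside 24.2% and 6.07% of the table. The highest by the strongest region was ABCA3 (3.53), the lipid transporter of surfactant-secreting cells, followed by the mucin gene MUC5AC (1.30) and the secretory-cell gene SCGB1A1 (0.31). The lowest were the keratin genes KRT7 (-1.52) and KRT8 (-1.23) and the cadherin gene CDH1 (-1.17). At the KRT7 region the signal was 162 in I+B and 154 in Bud in Ad-IκBαΔN cells, and 51.4 in I+B and 150 in Bud in Ad-GFP cells.

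Finally, each gene's strongest region was matched with that of the 4253 other genes by the Euclidean distance over the 6 log2 values. The closest to FOXA1 was GNG2 (distance 0.21), to GATA6 GALNT15 (0.36), to NKX2-1 UGT2B10 (0.33) and to SOX9 NACA (0.42). The closest to SOX4 was PSMG2 (0.29), to TEAD1 PLEKHH2 (0.29), to ELF3 STX1A (0.28) and to GRHL2 EFHB (0.22). The EFHB region had a signal of 61.8 in I+B, 45.3 in Bud and 6.91 in NS in Ad-IκBαΔN cells, and 31.2, 54.4 and 7.66 in Ad-GFP cells, the same order of groups as at GRHL2 +12.5 kb. The GNG2 region, 79.7 kb from its gene on chromosome 14, had 12.6, 6.84 and 8.46 in Ad-IκBαΔN cells, and 32.0, 3.85 and 8.00 in Ad-GFP cells, and so shared the low budesonide value of the FOXA1 region.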

How the data were processed

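ChIP followed by sequencing was made from 26 libraries: 12 for GR, 12 for RELA and 2 inputs. Only the GR data are used here. Per the submitters' processing notes, the tools included DiffBind 3.2, MACS2 2.2.7.1, Bowtie2 2.4.4 and FastQC 0.10.1, with SAMtools and bcl2fastq, on GRCh38. The deposited GR values are log2(signal + 1), 1 per region and group, although each group had 2 libraries. The inhibitor virus, Ad-IκBαΔN in the labels, is written Ad-IκBα in the table. No filter on low values was applied, and all 24 regions entered each comparison. Depth per library is not known from the deposited values, so no floor is given. No interval between replicates is given, because each group has 1 value per region.

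Regions were linked to gene starts in GENCODE release 44 within 100 kb, with Python 3.11.15 and pandas 2.3.3. Differences are between log2 values, called at 1. Unlogged values times the region width of 400 bp were tested for whole multiples of a step, within 0.0001. The names given are all 9 members, each gene's region with the highest mean over the groups, the member regions called in I+B against Bud in Ad-GFP cells, the closest gene to each member, and the 3 highest and 3 lowest genes of each list. The other member regions are described too. The members and gene lists were chosen with earlier results of these data known. Motifs were searched in hg38. The scripts were checked on simulated data. Alternatives were the scales, a pseudocount of 5, a filter of 25% of regions, and other rules of linking.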

Additional observations from a re-analysis of the deposited data

Results flagged for a closer look

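At 12 pairs of responses in the set, Ad-IκBαΔN and Ad-GFP cells differed in sign. The share over all regions was not computed, so the count does not set these genes apart. Each group has 1 value, so these differences were not tested, and each number below is the log2 response in Ad-IκBαΔN cells minus that in Ad-GFP cells. For I+B against Bud, the value was -2.65 at GATA6 +54.3 kb and -1.81 at GATA6 +45.3 kb. It was -0.67 at ELF3 +49.2 kb, -1.01 at ELF3 +50.5 kb and -0.67 at GRHL2 -18.1 kb. It was positive at 3 regions, with 1.01 at GRHL2 +12.5 kb, 0.84 at SOX4 -36.7 kb and 0.51 at GRHL2 -95.6 kb. The signs were opposite on all 5 scales at GATA6 +54.3 kb and SOX4 -36.7 kb. At the SOX4 region the Ad-IκBαΔN response was only 0.0035 with the steps divided out.

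For Bud against NS, the value was 1.43 at ELF3 +2.6 kb, 0.40 at ELF3 +21.5 kb, 1.02 at GRHL2 +91.1 kb and -1.45 at GATA6 +5.8 kb. These 4 regions had low signals without IL1B, between 1.34 and 14.2 in the Bud and NS groups of both viruses. The Ad-IκBαΔN NS values also lacked the step found in the other groups.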

How the results depend on the processing

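No paired analysis was possible because the table holds 1 value per region and group, and leaving out a replicate was not run for the same reason. Shares are percentages of the 24 regions; as deposited, 58.3% (Bud against NS, Ad-IκBαΔN), 62.5% (Bud against NS, Ad-GFP), 4.17% (I+B against Bud, Ad-IκBαΔN) and 54.2% (I+B against Bud, Ad-GFP) were higher, and Ad-IκBαΔN was higher than Ad-GFP at 4.17% in Bud and lower at 12 regions in I+B. Over all regions the deposited shares, in that order, were 59.3%, 57.9%, 9.65%, 48.9%, 4.02% and 46.5%. With the steps divided out, I+B against Bud gave 0% higher in Ad-IκBαΔN cells and, in Ad-GFP cells, 33.3% higher, 41.7% lower and a median of -0.47, with GATA6 +45.3 kb at -0.49. The background was 0.875% in Ad-IκBαΔN cells, and 30.3%, 43.7% and -0.61 in Ad-GFP cells. Between the viruses in I+B, dividing out steps, re-centring and quantile normalization each gave 16.7% higher and 29.2% lower in Ad-IκBαΔN, and centring on the unchanged class gave 16.7% higher. Of all regions, in the same order of scales, 25.7%, 25.4%, 24.5% and 14.3% were higher, and 22.4%, 24.4%, 24.3% and 35.9% lower. Re-centred, Bud against NS gave 8.33% higher and 20.8% lower in Ad-IκBαΔN cells (SOX9 +62.3 kb -0.13) and 20.8% higher, 25.0% lower, median -0.15 in Ad-GFP cells, and I+B against Bud gave 0% higher in Ad-IκBαΔN and 25.0% lower in Ad-GFP cells. For Bud against NS the background was 18.9% and 27.2%, and 24.3%, 32.6% and -0.03. For I+B against Bud it was 5.81% higher in Ad-IκBαΔN and 32.1% lower in Ad-GFP cells. After quantile normalization, Bud against NS gave 12.5% higher, 25.0% lower and median -0.38 in Ad-IκBαΔN cells (SOX9 +62.3 kb -1.31, TEAD1 +18.5 kb -1.12) and 25.0% higher and 20.8% lower in Ad-GFP cells. The background there was 21.5%, 21.8% and 0.0002 in Ad-IκBαΔN cells, and 22.0% and 22.5% in Ad-GFP cells. On that scale I+B against Bud gave 0% higher in Ad-IκBαΔN cells and 29.2% higher and 25.0% lower in Ad-GFP cells, and the viruses in Bud 0% higher. Of all regions these shares were 0.885% in Ad-IκBαΔN cells, 25.5% and 26.9% in Ad-GFP cells, and 0.0745% for the viruses. Centred on the unchanged class, Bud against NS gave 0% higher, 41.7% lower and median -0.45 in Ad-IκBαΔN cells (SOX9 +62.3 kb -0.62, TEAD1 +18.5 kb -0.28) and 4.17% higher, 37.5% lower and median -0.67 in Ad-GFP cells, and I+B against Bud 0% higher in Ad-IκBαΔN cells. For Bud against NS the background was 10.2%, 37.1% and -0.48, and 14.4%, 40.7% and -0.55. For I+B against Bud it was 6.69% higher in Ad-IκBαΔN cells. A pseudocount of 5 gave 0% higher for I+B against Bud in Ad-IκBαΔN cells and for the viruses in Bud, beside 2.57% and 0.102% of all regions. Without the lowest 25% of regions, 76.5% of the 17 left were higher for Bud against NS in Ad-IκBαΔN cells, beside 76.6% of all regions left. Linking to gene starts of any type left 4 regions, with 0% higher for I+B against Bud in Ad-IκBαΔN cells and for the viruses in Bud, and 25.0% lower for the viruses in I+B. The background of these was 9.65%, 4.02% and 46.5%. Re-centring and quantile normalization take out, by construction, a difference shared by all regions, and centring on the unchanged class takes out that of the class. Beyond that, the cause of these changes was not tested. The depth of the libraries is unknown, so what it limits cannot be given.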

Other observations

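Regions beyond 100 kb whose nearest protein-coding start is still one of the 9 genes were looked at after the values above were seen, and have no test. There were 33 such regions, of which 3 were 2-fold higher in I+B than in Bud in Ad-IκBαΔN cells and 22 in Ad-GFP cells, with 1 lower in Ad-GFP cells (SOX4 +207.6 kb, log2 -1.63). Of all regions, 9.65% were higher in Ad-IκBαΔN and 48.9% in Ad-GFP cells, and 24.2% in Ad-GFP cells on all 5 scales, the background for this count and the next ones. Distance to the nearest start does not tell which gene a region acts on.

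FOXA2, with no region inside 100 kb, had 10 between 113.9 and 272.4 kb. Of these, 1 was higher in Ad-IκBαΔN cells and 7 in Ad-GFP cells (3 on all 5 scales), with medians of 0.11 and 2.23. At +113.9 kb the signal was 33.5 in I+B and 29.6 in Bud in Ad-IκBαΔN cells, and 399 in I+B, 28.7 in Bud and 14.1 in NS in Ad-GFP cells. At -190.5 kb it was 139 in I+B and 195 in Bud in Ad-IκBαΔN cells, and 213 and 216 in Ad-GFP cells, a region bound strongly with budesonide alone.

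SOX9, whose 3 nearer regions were not 2-fold higher with IL1B, had 11 regions downstream between 300.3 and 482.2 kb, all in or overlapping LINC00511, a long non-coding RNA gene. For I+B against Bud, 2 of the 11 were higher in Ad-IκBαΔN cells and 11 of 11 in Ad-GFP cells, with medians of 0.31 and 1.90, and 4 of the 11 were 2-fold higher in Ad-GFP cells on all 5 scales. The 11 lie along 1 gene, some close together, and are not separate evidence. Of the 13 SOX9 regions beyond 100 kb, those upstream, at -133.1 kb and -210.8 kb, went the other way in Ad-GFP cells. Their log2 differences there were -0.64 and -0.20, below 0 on all 5 scales, beside 0.02 and 0.14 in Ad-IκBαΔN cells. At +398.1 kb the signal was 26.9 in I+B and 10.9 in Bud in Ad-IκBαΔN cells, and 206 in I+B and 8.08 in Bud in Ad-GFP cells. At +301.9 kb it was 35.0 in I+B and 19.8 in Bud in Ad-IκBαΔN cells, and 257 in I+B and 18.4 in Bud in Ad-GFP cells. The regions nearest the 100 kb line were GRHL2 -95.6 kb and TEAD1 +95.7 kb inside it, and GATA6 +110.4 kb (Ad-GFP log2 difference between I+B and Bud -0.25) and GATA6 +113.2 kb (1.22) outside it.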
